A study of Mus musculus with 4 samples.

Results

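The 40 genes described here encode the enzymes of glycolysis and of the non-oxidative pentose phosphate pathway, the carriers of glucose and lactate, the oxygen sensors of the cell and targets of the hypoxia-inducible factors (HIFs). They were chosen by name from the 25814 genes listed for each library by their known roles. Keratinocytes (KCs), the epithelial cells of the epidermis, were cultured from the tails of adult 129/sv mice that were either wild type (WT) or lacked Nfat5 (Nfat5-/-), and their transcriptomes were compared by RNA sequencing to ask how NFAT5, a transcription factor controlled by osmotic stress, affects gene expression. There were 4 libraries, 2 of each genotype, labelled as replicates.

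Glycolysis breaks glucose down to pyruvate in the cytosol, and cells that grow fast, keratinocytes in culture among them, turn much of that pyruvate into lactate and export it. The pentose phosphate pathway branches off at glucose 6-phosphate and returns sugars to glycolysis through transketolase and transaldolase. When oxygen is short, the prolyl hydroxylases that mark HIF1α for degradation slow down, HIF1α accumulates, and it raises transcription of nearly every step of glycolysis together with genes of oxygen supply, pH control and mitophagy.

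All cells of the comparison were untreated primary cultures kept in serum-free medium with 0.06 mM Ca++. The mutation is present in the whole animal, so cells of both genotypes had passed through a body with or without NFAT5 before culture, and the mutants were compared with wild type siblings. Only 2 cultures stand for each genotype. The p-values measure the spread between these cultures, with the variance of each gene drawn partly from that of the other genes tested. Nfat5 mRNA did not separate the labels. Its level was 1.67 and 3.002 RPKM (reads scaled by exon length and library size) in the WT libraries and 2.02 and 2.78 RPKM in the Nfat5-/- libraries, and reads over the whole gene do not show which part of it the mutation removes. The genotypes below are therefore those of the labels.

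The libraries held between 16219445 and 23494436 gene reads, and 3 reads were worth 0.128 to 0.185 CPM (gene reads scaled to a common library total). The summed level of 8 keratinocyte markers was between 11852 and 13836 RPKM in every library, while fibroblast, endothelial and immune markers summed to at most 1.13, 0.860 and 2.65 RPKM. Smooth muscle markers were higher in Nfat5-/- KCs, with sums of 184 and 151 RPKM in WT against 518 and 819 RPKM in Nfat5-/- libraries (Acta2 leading, 4 of 4 markers tested called by edgeR and by DESeq2, Des at or near 0). Melanocyte markers were lower, at 7.54 and 7.20 against 2.30 and 3.20 RPKM, with Tyrp1 called by edgeR among the 5 tested and DESeq2 also calling Pmel. The sum of 8 proliferation genes was 200 and 203 RPKM in WT against 187 and 131 RPKM in Nfat5-/- libraries. Suprabasal markers summed to 5.51 and 4.97 RPKM in WT against 7.31 and 10.5 RPKM in Nfat5-/- KCs, with none of the 5 tested called by edgeR or DESeq2, and Acta1 led the skeletal muscle markers, which summed to 32.2 and 23.3 against 41.9 and 57.4 RPKM with none of the 2 tested called by edgeR and Acta1 called by DESeq2. Reads of the Y-linked genes were found in WT replicate 1 (summed level 27.9 RPKM) and were at or near 0 in the other libraries. Y-linked expression, a mark of male cells, was thus not balanced between the genotypes, and WT replicate 1 stands apart in these genes. Values without WT replicate 1 are given for the edgeR calls among the pathway genes and for the members with an unadjusted p under 0.05. Whether any of these differences bears on the genes below was not tested, and in such bulk samples fewer cells of a type and less RNA per cell cannot be told apart.

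No member passed the test between the genotypes. Of the 40 members, 38 had enough reads to be tested, and 0 of them were called at an adjusted p under 0.05 by edgeR's quasi-likelihood test, where 160 of the 12614 genes tested (1.27%) were called. At an unadjusted p under 0.05 there were 6 members (15.8%), 3 with the higher and 3 with the lower level in Nfat5-/- KCs, a share near the 14.6% of all genes tested. The RPKM values of the genotypes did not overlap in 14 of the 38 members (36.8%), which compares with 46.5% of all genes tested. Of these, 8 were higher and 6 lower in Nfat5-/- KCs, beside 21.6% and 25.0% of all genes tested. The median log2 fold change was 0.02 for the members and -0.01 for all genes tested. By DESeq2 there were 2 members called, Pfkfb3 and Slc16a3, with 3.38% of all genes tested called, and by limma there were 0. Without a filter on low counts there were 4, with 6.3% of all genes called, and 2 each without WT replicate 1 (2.05% of genes) and without WT replicate 2 (3.7% of genes).

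The intervals were narrow for most members. The 95% interval of the difference lay within 1.5-fold in either direction for 26 of 38 members, 13 of them among the 14 glycolytic enzymes tested, while 55.7% of all genes tested had an interval that narrow. It lay within 2-fold for 35 of 38 members and for 79.3% of all genes tested. Adm, Car9 and Pfkfb3 were the members with an interval that reached past 2-fold. Among the glycolytic enzymes, the interval of Hk1 alone reached past 1.5-fold.

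**Figure D1:**
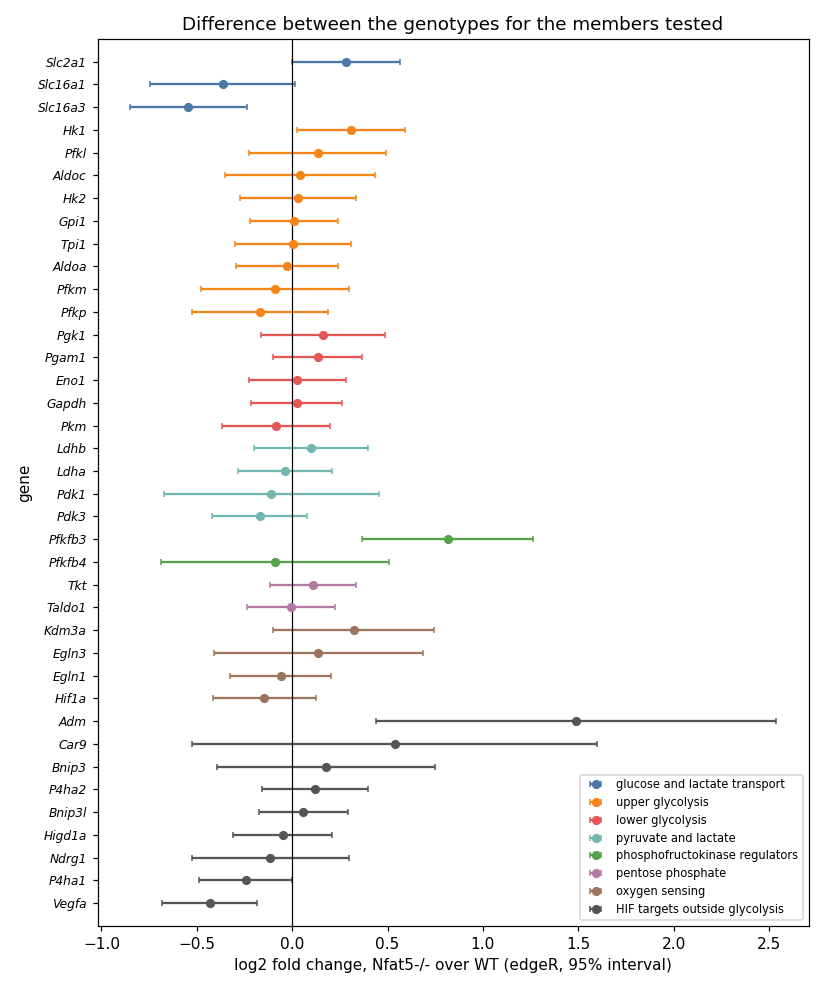
Log2 fold change (Nfat5-/- over WT) of the 38 members tested, from edgeR on total gene reads, with its 95% interval as a bar and the role of the gene as colour. The 14 glycolytic enzymes lie between -0.17 and 0.31, and the intervals of Slc16a3, Vegfa, P4ha1, Hk1, Pfkfb3 and Adm do not cross 0.

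Among the 4 members with the smallest unadjusted p, Pfkfb3 and Adm had the higher level in Nfat5-/- KCs and Slc16a3 and Vegfa the lower. Pfkfb3, Slc16a3, Vegfa and Adm are known HIF targets, and HIF targets were part of the choice of members. In GRCm38 they lie at chr2:11471433-11554077, chr11:120948480-120960868, chr17:46016993-46032369 and chr7:110627661-110629820. The 250 bases before their start sites (RefSeq, GRCm38.p6) are shown because HIF binds the core ACGTG or GCGTG. In the sequences, written 5′ to 3′ on the strand of the gene, capitals mark a match to that core on either strand, so that a match on the opposite strand reads CACGT or CACGC.
Pfkfb3, chr2:11553930-11554179, minus strand: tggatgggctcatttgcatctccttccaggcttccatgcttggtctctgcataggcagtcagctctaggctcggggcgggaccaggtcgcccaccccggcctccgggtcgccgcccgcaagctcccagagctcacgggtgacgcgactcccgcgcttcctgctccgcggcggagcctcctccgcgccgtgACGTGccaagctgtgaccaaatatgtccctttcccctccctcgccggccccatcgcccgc
Slc16a3, chr11:120948817-120949066, plus strand: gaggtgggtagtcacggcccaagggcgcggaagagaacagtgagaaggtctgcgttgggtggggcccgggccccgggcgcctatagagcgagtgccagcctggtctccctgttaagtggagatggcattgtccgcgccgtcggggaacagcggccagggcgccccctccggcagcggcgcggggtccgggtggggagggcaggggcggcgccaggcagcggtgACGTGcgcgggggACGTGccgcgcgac
Vegfa, chr17:46032378-46032627, minus strand: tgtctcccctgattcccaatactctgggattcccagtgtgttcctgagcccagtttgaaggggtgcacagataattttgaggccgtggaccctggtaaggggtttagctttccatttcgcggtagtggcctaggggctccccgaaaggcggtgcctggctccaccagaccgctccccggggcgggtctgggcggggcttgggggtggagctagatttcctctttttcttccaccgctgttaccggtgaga
Adm, chr7:110627407-110627656, plus strand: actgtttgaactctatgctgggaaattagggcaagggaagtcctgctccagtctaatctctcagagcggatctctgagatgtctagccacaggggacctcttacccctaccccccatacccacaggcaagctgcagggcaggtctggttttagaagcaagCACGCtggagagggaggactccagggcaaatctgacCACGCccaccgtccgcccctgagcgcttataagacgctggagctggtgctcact

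Pfkfb3 had 1 match, beginning 60 bases before the start site, Slc16a3 had 2, at 27 and 14 bases, and Adm had 2, at 90 and 54 bases, the latter both on the opposite strand. No match was present in these 250 bases of Vegfa, which says only that the letters are not in this stretch, and the other of its 2 RefSeq windows held a match. The set of RefSeq windows searched, from 250 bases before to 50 bases after the start site, covered 38 members and held none for Bnip3l and Ndrg1. In 31 of the 38 (81.6%) the window nearest to the annotated start held at least 1 match. So did 64.0% of the 9728 tested genes with a window in the set and 43.8% of all 32851 windows. The letters ACGTG are also part of the E-box CACGTG. The tonicity element TonE, bound by NFAT5, had a match in the window nearest to the annotated start of 2 members (5.26%), Eno2 and Hif1a, and of 3.55% of the tested genes, and Kdm3a had a match in 1 of its 2 other windows. The start site of the nearest window lay 6492 bases from the annotated start for Hif1a, 5857 for Ankrd37 and 4329 for Ldha. Eno2 had too few reads to be tested between the genotypes. The HIF core and TonE matches describe the sequence and were not tested for binding.

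Glucose enters KCs through Slc2a1 (GLUT1) and lactate passes the membrane through the monocarboxylate transporters Slc16a1 (MCT1) and Slc16a3 (MCT4). Slc16a3, the carrier that exports lactate from glycolytic cells, had levels of 31.6 and 26.7 RPKM in WT against 21.6 and 17.9 RPKM in Nfat5-/- KCs. Both Nfat5-/- libraries lay below both WT libraries, and the means were 29.1 ± 3.51 and 19.7 ± 2.58 RPKM (SD, n = 2 per genotype). The log2 fold change was -0.54 (SE 0.13, 95% interval -0.85 to -0.24, unadjusted p = 0.00396), which was not significant after adjustment over all genes tested by edgeR's quasi-likelihood test (adjusted p = 0.112). It passed the threshold by DESeq2 (adjusted p = 0.0211), without a filter on low counts (7.04e-04) and without WT replicate 2 (-0.66, adjusted p = 0.0364), but not without WT replicate 1 (-0.41, adjusted p = 0.282), within a range of 7.04e-04 to 0.605 over all alternatives.

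Slc16a1 showed 19.5 and 16.3 RPKM in WT against 15.8 and 11.5 RPKM in Nfat5-/- KCs. The lowest WT and the highest Nfat5-/- library were close to each other, and the log2 fold change of -0.36 had an interval of -0.74 to 0.02 (adjusted p = 0.361) and lay between -0.59 without Nfat5-/- replicate 1 and -0.17 without Nfat5-/- replicate 2. Slc2a1 was the most abundant of the carriers, with 92.2 and 79.5 RPKM in WT against 97.5 and 109 RPKM in Nfat5-/- KCs. Here both Nfat5-/- libraries lay above both WT libraries, with a log2 fold change of 0.28 (SE 0.12, adjusted p = 0.346) that lay between 0.18 and 0.40 with single libraries left out. Thus the lactate carriers were at the lower and the glucose carrier at the higher level in Nfat5-/- KCs, and edgeR's fit on all libraries called none of the 3, while DESeq2 called Slc16a3.

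**Figure D2:**
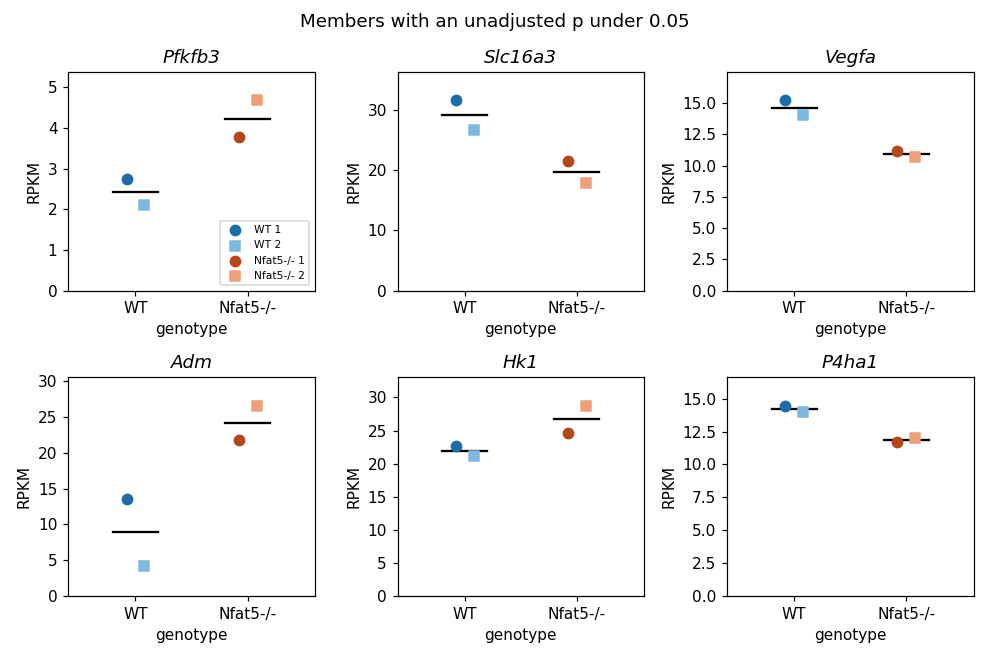
Level (RPKM, linear axis from 0) in each library of the 6 members with an unadjusted p under 0.05, by genotype. Points are libraries and horizontal lines are the mean of 2 libraries. In each panel the values of WT and Nfat5-/- do not overlap, and WT replicates 1 and 2 of Adm are 13.5 and 4.19 RPKM.

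Hexokinases trap glucose in the cell by phosphorylation. Hk1, the form found in most tissues, had levels of 22.6 and 21.1 RPKM in WT against 24.6 and 28.8 RPKM in Nfat5-/- KCs. Its log2 fold change of 0.31 (SE 0.12, unadjusted p = 0.0368) did not pass the threshold (adjusted p = 0.308) and was between 0.18 and 0.43 when single libraries were left out (0.37 without WT replicate 1). Hk2, the HIF-inducible form, had 9.64 and 7.81 RPKM in WT against 9.01 and 8.56 RPKM in Nfat5-/- KCs, so that the WT values enclosed the others (log2 fold change 0.03, interval -0.27 to 0.34). Gpi1, which converts glucose 6-phosphate to fructose 6-phosphate, ranged from 152 to 159 RPKM over the 4 libraries.

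Phosphofructokinase is the committed step of glycolysis and is assembled from liver (Pfkl), platelet (Pfkp) and muscle (Pfkm) subunits. Pfkl was measured at 55.4 and 43.7 RPKM in WT against 48.8 and 58.2 RPKM in Nfat5-/- KCs, and Pfkp at 34.3 and 26.7 against 24.8 and 29.1 RPKM. For both genes the genotypes overlapped, and the log2 fold changes were 0.13 and -0.17, with adjusted p of 0.745 and 0.673. Pfkl made up 57.4% and 57.9% of the summed RPKM of the family in WT and 61.6% and 62.8% in Nfat5-/- KCs, and Pfkp made up 35.6% and 35.4% against 31.4% and 31.4%. The shares of the genotypes did not overlap for these subunits, whereas the share of Pfkm, 6.999% and 6.77% against 7.02% and 5.81%, did. With 2 libraries against 2 an exact permutation test cannot go below p = 0.333, so that these shares are given as values with no test.

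Aldolase, which splits fructose 1,6-bisphosphate, was almost wholly Aldoa, at 729 and 622 RPKM in WT against 641 and 666 RPKM in Nfat5-/- KCs. Aldoc, the brain-type isoform, was found at 7.04 to 8.85 RPKM, or 1.12% to 1.31% of the summed aldolase level. Triosephosphate isomerase, Tpi1, ranged from 381 to 479 RPKM with a log2 fold change of 0.00 (interval -0.30 to 0.31). In each of these 3 genes the RPKM values of the WT cultures enclosed those of the Nfat5-/- cultures.

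Lower glycolysis yields ATP and NADH. Gapdh, the most abundant member and the 30th of all genes by mean RPKM, had levels of 1374 and 1243 RPKM in WT against 1299 and 1325 RPKM in Nfat5-/- KCs. Because Gapdh has many processed pseudogenes, only 2.45% of its exon reads mapped to a single site, and the fit on those unique reads gave a log2 fold change of 0.06 (interval -0.22 to 0.33, adjusted p = 0.868) beside 0.02 on all reads. Eno1, the main enolase, had 341 and 296 RPKM in WT against 319 and 320 RPKM in Nfat5-/- KCs. With 23.8% of its exon reads unique, its log2 fold change was 0.03 on all and -0.02 on unique reads. In the fit on unique exon reads as a whole, 0 members and 218 of 11680 genes (1.87%) were called, and 7 members had an unadjusted p under 0.05, beside 15.1% of all genes.

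Pgk1, an X-linked gene that makes the first ATP of the lower part of the pathway, ranged from 378 RPKM in WT replicate 2 to 493 RPKM in WT replicate 1, with 481 and 478 RPKM in Nfat5-/- KCs. Its difference was 0.16 on the log2 scale over all libraries, 0.37 without WT replicate 1 and -0.02 without WT replicate 2. Pgam1, phosphoglycerate mutase, had 318 and 310 RPKM in WT against 330 and 349 RPKM in Nfat5-/- KCs without overlap (log2 fold change 0.13, adjusted p = 0.594). Pkm, pyruvate kinase, had 965 and 803 RPKM in WT against 801 and 847 RPKM in Nfat5-/- KCs. Eno2, the neuronal enolase, was not tested, since it had 1 and 0 reads in the WT and 1 and 0 reads in the Nfat5-/- libraries.

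The summed level of the 15 glycolytic enzymes was 4994 and 4298 RPKM in WT against 4566 and 4710 RPKM in Nfat5-/- KCs. The means, 4646 ± 492 and 4638 ± 102 RPKM (SD, n = 2 per genotype), differed by far less than the WT cultures differed from each other.

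**Figure D3:**
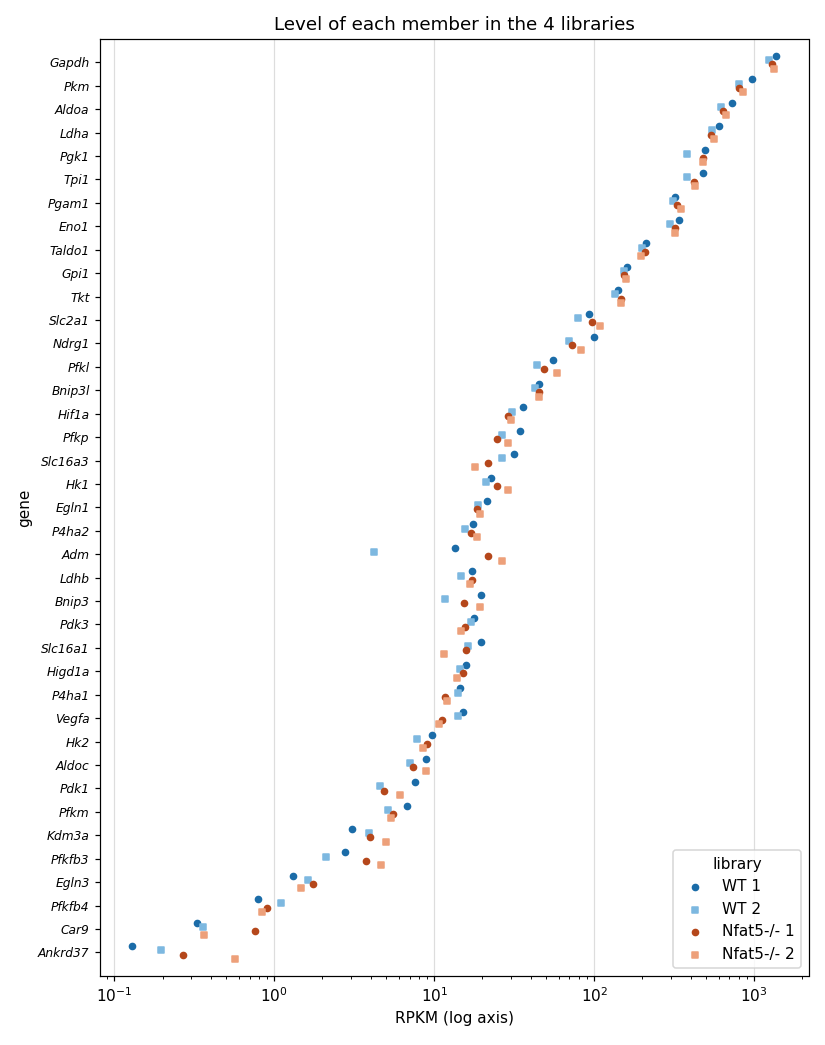
Level (RPKM, log axis) of 39 members in each of the 4 libraries, ordered by mean, from Ankrd37 at 0.130 to 0.565 RPKM up to Gapdh at 1243 to 1374 RPKM. Eno2, listed at 0 in 3 libraries, is left out. Points of one gene lie close together for most members, with Adm, Car9 and Ankrd37 the most spread.

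The spread between the WT cultures had 1 direction. WT replicate 1 exceeded WT replicate 2 in 35 of the 38 members and in 14 of 14 glycolytic enzymes, by CPM, while this held for 50.8% of all genes tested. The median log2 ratio of WT replicate 1 to WT replicate 2 was 0.29 for the glycolytic enzymes, 0.21 for all members tested and 0.00 for all genes tested. Pfkfb4, Egln3 and Kdm3a were the members with the lower level in WT replicate 1. WT replicate 1 was the highest of the 4 libraries in 22 of 38 members and in 29.6% of all genes tested, and WT replicate 2 was the lowest in 22 members and in 21.3% of all genes. Both held in 11 members, 7 of them glycolytic enzymes, against 5.97% of all genes tested. Between the Nfat5-/- cultures, replicate 1 was below replicate 2 in 13 of 14 glycolytic enzymes and 28 of 38 members, beside 49.5% of all genes tested, with median log2 ratios of -0.09 for the enzymes and -0.08 for the members.

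The sign of many small differences therefore rested on single WT cultures. Without WT replicate 1 the log2 fold change changed sign in 10 members, and without WT replicate 2 in 11 members, 8 of them glycolytic enzymes. Leaving out Nfat5-/- replicate 1 or 2 turned the sign of 4 and 7 members. Pfkl, for example, had 0.13 over all libraries, 0.32 without WT replicate 1 and -0.03 without WT replicate 2.

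**Figure D4:**
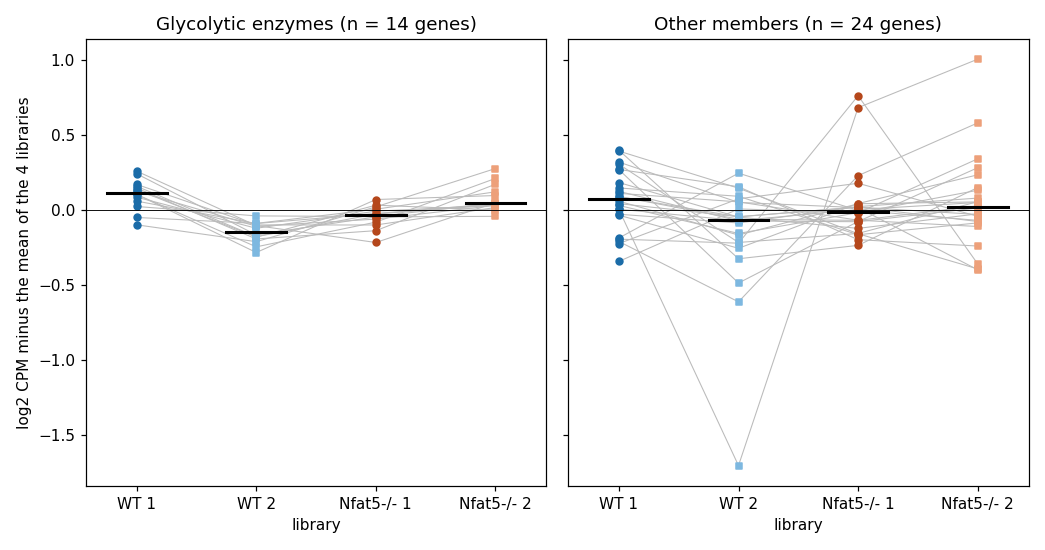
Log2 CPM of each member tested, in each library, minus the mean of the 4 libraries for that gene, with grey lines joining the values of one gene and black bars marking medians. In the 14 glycolytic enzymes (left) the medians are 0.12 in WT 1, -0.14 in WT 2, -0.03 in Nfat5-/- 1 and 0.05 in Nfat5-/- 2, and the 24 other members (right) show the same order of the WT libraries with a wider spread.

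Pyruvate is either reduced to lactate or, when the pyruvate dehydrogenase complex is active, sent to the mitochondria. Ldha, the lactate-forming subunit, had 599 and 541 RPKM in WT against 537 and 560 RPKM in Nfat5-/- KCs, and Ldhb 17.3 and 14.7 against 17.1 and 16.8 RPKM. Neither differed beyond the spread of the WT cultures, with log2 fold changes of -0.04 and 0.10. Pdk1 and Pdk3 are kinases that switch the complex off. Pdk1, a HIF target, had 7.53 and 4.55 RPKM in WT against 4.84 and 6.14 RPKM in Nfat5-/- KCs, whereas the X-linked Pdk3 was at 17.7 and 17.0 RPKM in WT against 15.5 and 14.8 RPKM in Nfat5-/- KCs. The Pdk3 values did not overlap, with a log2 fold change of -0.17 and an interval of -0.42 to 0.08 (adjusted p = 0.520).

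The bifunctional PFKFB enzymes set the level of fructose 2,6-bisphosphate, the activator of phosphofructokinase, and Pfkfb3 is the isoform with the strongest kinase activity. Its level was 2.75 and 2.12 RPKM in WT against 3.76 and 4.67 RPKM in Nfat5-/- KCs, from 259, 262, 509 and 502 reads. Both Nfat5-/- libraries exceeded both WT libraries, with means of 4.22 ± 0.643 and 2.43 ± 0.451 RPKM (SD, n = 2 per genotype). Its log2 fold change of 0.82 (SE 0.19, interval 0.37 to 1.26) had the smallest unadjusted p of all members (0.00336), with an adjusted p of 0.105 by edgeR's quasi-likelihood test. The difference passed the threshold by DESeq2 (adjusted p = 0.0228), without a filter on low counts (4.40e-05) and without WT replicate 1 (1.03, adjusted p = 0.0385), and not without WT replicate 2 (0.62, adjusted p = 0.145), within a range of 4.40e-05 to 0.569. Pfkfb4 was found at 0.787 and 1.10 RPKM in WT against 0.894 and 0.842 RPKM in Nfat5-/- KCs. Pfkfb3 thus made up 77.8% and 65.9% of their sum in WT and 80.8% and 84.7% in Nfat5-/- KCs.

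Transketolase (Tkt) and transaldolase (Taldo1) shuttle carbon between the pentose phosphate pathway and glycolysis. Tkt had 140 and 135 RPKM in WT against 146 and 148 RPKM in Nfat5-/- KCs without overlap, but its log2 fold change was 0.11 (interval -0.12 to 0.33, adjusted p = 0.664). Taldo1 had 211 and 199 against 207 and 196 RPKM, with a log2 fold change of 0.00 (interval -0.23 to 0.22). For these enzymes a difference of 1.5-fold in either direction lay outside the interval.

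Oxygen is sensed by the prolyl hydroxylases Egln1 (PHD2) and Egln3 (PHD3), which hydroxylate HIF1α. Hif1a had 35.9 and 30.7 RPKM in WT against 29.1 and 30.3 RPKM in Nfat5-/- KCs. Its values did not overlap, but 41.6% of its exon reads were unique, and the log2 fold change was -0.15 on all reads and -0.05 on unique reads (interval -0.33 to 0.22, adjusted p = 0.873). Egln1 was at 18.6 to 21.3 RPKM, with a log2 fold change of -0.06. Egln3, itself induced by HIF, was at 1.31 to 1.75 RPKM and made up 5.80% to 8.60% of their summed level. Kdm3a, a histone demethylase and HIF target, had 3.06 and 3.91 RPKM in WT against 3.95 and 5.00 RPKM in Nfat5-/- KCs (log2 fold change 0.32, interval -0.10 to 0.75, from 0.14 without Nfat5-/- replicate 2 to 0.51 without WT replicate 2), where the nearest WT and Nfat5-/- libraries differed little.

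The HIF targets outside glycolysis did not share a direction, with a higher fitted level in Nfat5-/- KCs for 5 and a lower one for 4 of the 9 tested. Adm, which encodes the vasodilator peptide adrenomedullin, had 13.5 and 4.19 RPKM in WT against 21.7 and 26.6 RPKM in Nfat5-/- KCs. All Nfat5-/- values lay above the WT values, but the WT cultures differed more from each other than WT replicate 1 did from the nearest Nfat5-/- culture in fold terms. The log2 fold change of 1.49 (SE 0.45, interval 0.44 to 2.54) was the largest of the members and had an unadjusted p of 0.0120 and an adjusted p of 0.194. It was 2.56 without WT replicate 1 (adjusted p = 8.25e-04) and 0.85 without WT replicate 2 (adjusted p = 0.0384). Adm was called in each of these fits, and its adjusted p ranged from 3.06e-18 to 0.713 over all alternatives.

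Vegfa, the main angiogenic factor made by KCs, had 15.2 and 14.0 RPKM in WT against 11.1 and 10.7 RPKM in Nfat5-/- KCs. The cultures of one genotype were close to each other and the genotypes did not overlap, with means of 14.6 ± 0.832 and 10.9 ± 0.324 RPKM (SD, n = 2 per genotype). The log2 fold change was -0.43 (SE 0.11, interval -0.68 to -0.18), with an unadjusted p of 0.00442 and an adjusted p of 0.120. When single libraries were left out it lay between -0.49 and -0.37 (-0.37 and adjusted p = 0.326 without WT replicate 1), and it was called without a filter on low counts (adjusted p = 0.0252, range over alternatives 0.0252 to 0.564).

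P4ha1 and P4ha2 encode catalytic subunits of the collagen prolyl hydroxylase, which needs oxygen to stabilise collagen. P4ha1 had 14.5 and 14.0 RPKM in WT against 11.7 and 12.03 RPKM in Nfat5-/- KCs (log2 fold change -0.24, unadjusted p = 0.0480, adjusted p = 0.336, and -0.21 without WT replicate 1), and P4ha2 17.6 and 15.5 against 17.1 and 18.5 RPKM (0.12, adjusted p = 0.6997). P4ha2 made up 54.8% and 52.5% of their sum in WT and 59.4% and 60.6% in Nfat5-/- KCs, again without overlap.

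**Figure D5:**
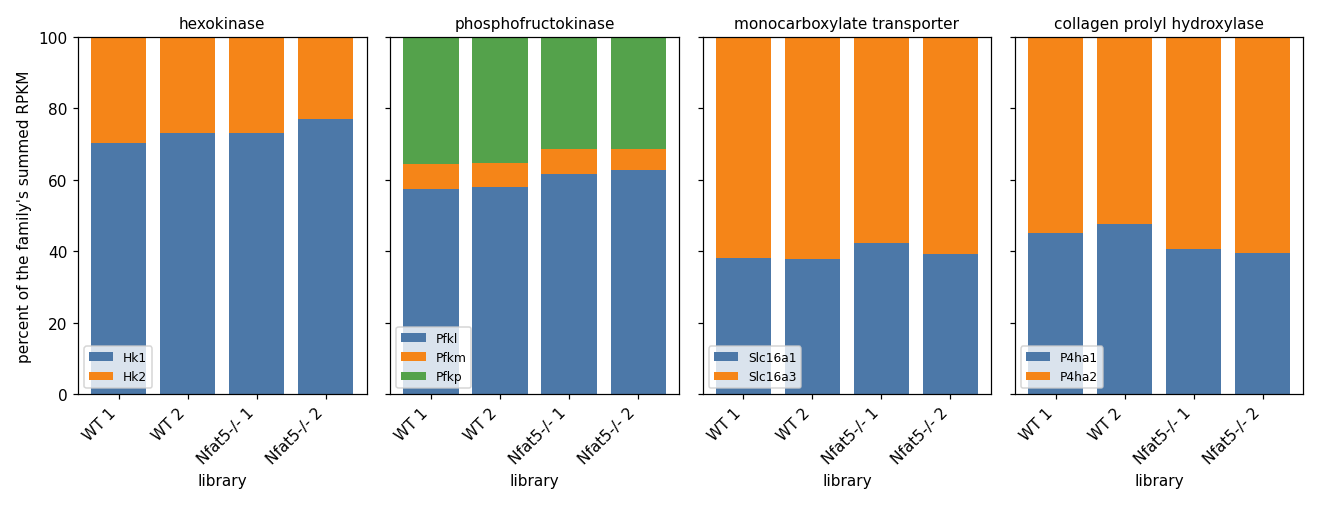
Share (percent of the summed RPKM of the family, bars from 0 to 100) of each paralogue in each of the 4 libraries, for hexokinases, phosphofructokinase subunits, lactate carriers and collagen prolyl hydroxylases. Pfkl is 57.4% and 57.9% in WT and 61.6% and 62.8% in Nfat5-/-, and P4ha2 is 54.8% and 52.5% in WT and 59.4% and 60.6% in Nfat5-/-.

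Bnip3 and Bnip3l encode receptors that mark mitochondria for removal. Bnip3 had 19.6 and 11.6 RPKM in WT against 15.4 and 19.3 RPKM in Nfat5-/- KCs, with WT replicate 1 the highest and WT replicate 2 the lowest (log2 fold change 0.18 on all and 0.10 on unique exon reads, 58.2% of the total). Bnip3l was at 42.8 to 45.3 RPKM in every library. Ndrg1, a stress gene strongly induced by hypoxia, had 99.8 and 69.8 RPKM in WT against 72.7 and 82.1 RPKM in Nfat5-/- KCs, and Higd1a, a mitochondrial protein, ranged from 13.8 to 15.8 RPKM.

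Car9, a carbonic anhydrase that is barely made without HIF, was low throughout, with 16 and 21 reads in WT and 45 and 16 reads in Nfat5-/- libraries. Its level of 0.759 RPKM in Nfat5-/- replicate 1 stood above the 0.327 to 0.362 RPKM of the other libraries, so that the log2 fold change of 0.54 became -0.15 without that library. Ankrd37 had 3 and 5 reads in WT and 6 and 11 reads in Nfat5-/- libraries and was not tested. The fitted difference of Car9 thus rested on 1 library, and a difference was resolved for neither gene.

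Reads from introns, which come largely from unprocessed transcripts, were sparse, at 1.79% to 1.97% of gene reads. They could be tested for 17 members, of which 0 were called by edgeR, as were 5 of all 5740 genes tested (0.0871%). An unadjusted p under 0.05 was found for 7 of the 17 members and for 12.2% of all genes tested in introns. Vegfa had 47 and 63 intron reads in WT and 37 and 19 in Nfat5-/- libraries (log2 fold change -0.85, adjusted p = 0.270), and Hk1 had 34 and 29 against 52 and 37 (0.61, adjusted p = 0.398). In both genes the fitted intron value had the sign of the gene as a whole. The sign was the opposite in Slc2a1, Gpi1, Aldoa, Gapdh, Ldha, Tkt, Kdm3a and P4ha2, and the same in the rest of the 17 members. Slc2a1 and Kdm3a had intron log2 fold changes of -0.18 and -0.76, against 0.28 and 0.32 over the whole gene. Aldoa and Tkt, at -0.03 and 0.11 over the whole gene, had intron log2 fold changes of 0.81 and -0.81. The reads were 19 and 31 against 45 and 35 for Aldoa and 37 and 48 against 21 and 23 for Tkt. Pfkp, Gpi1 and Ndrg1 had intron log2 fold changes of -0.56, -0.63 and -0.77. The adjusted p of Aldoa, Tkt, Pfkp, Gpi1 and Ndrg1 in this edgeR fit was between 0.275 and 0.398.

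Of 106 further genes of the same pathways, 88 could be tested and 2 were called (1.27% of all genes tested were), with a median log2 fold change of 0.02. DESeq2 called 6 of the 88, beside 3.38% of all genes tested. Both edgeR calls were among the 29 other HIF targets tested. Of the 29, 9 (31.0%, beside 14.6% of all genes tested) had an unadjusted p under 0.05. The level in Nfat5-/- KCs was higher for 5 of the 9 and lower for 4. These lists were chosen with earlier results of these data known, so that their shares are descriptions and no test of an excess. Lox, which encodes lysyl oxidase, the enzyme that crosslinks collagen, rose from 0.388 and 0.329 RPKM in WT to 1.72 and 2.67 RPKM in Nfat5-/- KCs (log2 fold change 2.58, SE 0.29, adjusted p = 0.0174 by edgeR's quasi-likelihood test). The call held without WT replicate 1 (2.69, adjusted p = 0.00628) and was lost without Nfat5-/- replicate 2 (2.21, adjusted p = 0.0917, range over alternatives 1.57e-21 to 0.0917). Fos, an AP-1 subunit, rose from 10.7 and 10.2 RPKM to 17.1 and 17.8 RPKM (0.76, SE 0.11, adjusted p = 0.0319). Its call held without WT replicate 1 (0.81, adjusted p = 0.0284) and was lost with the replicate number as a block (0.76, adjusted p = 0.0564), without Nfat5-/- replicate 1 (0.81, adjusted p = 0.113) and without Nfat5-/- replicate 2 (0.72, adjusted p = 0.212, range over alternatives 9.53e-06 to 0.212). DESeq2 also called 3 other HIF targets that edgeR did not. Stc2, the hormone stanniocalcin 2, had 8.14 and 3.94 RPKM in WT against 2.74 and 1.73 RPKM in Nfat5-/- KCs (-1.36, adjusted p = 0.140 by edgeR, 0.00480 by DESeq2 and 0.0297 with the replicate block, range over alternatives 4.44e-13 to 0.642). Its log2 fold change was -0.74 without WT replicate 1 (adjusted p = 0.239) and -1.80 without WT replicate 2 (adjusted p = 0.00326). Bhlhe40, a transcriptional repressor, had 187 and 214 against 143 and 138 RPKM (-0.50, adjusted p = 0.0874 by edgeR and 0.00362 by DESeq2, range 0.00121 to 0.397). Plod2, a collagen lysyl hydroxylase, had 13.8 and 14.4 against 18.7 and 19.3 RPKM (0.44, adjusted p = 0.102 by edgeR and 0.0421 by DESeq2, range 0.0153 to 0.509).

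The other lists of the pathway had no call by edgeR's quasi-likelihood test in the main fit on total gene reads. Pck2 was the gene of these lists that DESeq2 called. Among 26 other glycolysis genes tested, 5 (19.2%, beside 14.6% of all genes tested) had an unadjusted p under 0.05, and the smallest belonged to Pck2, the mitochondrial phosphoenolpyruvate carboxykinase, at 51.1 and 33.2 RPKM in WT against 21.3 and 16.9 RPKM in Nfat5-/- KCs. Its log2 fold change of -1.12 had an adjusted p of 0.0601 on all reads and of 0.0398 on unique exon reads, and it was 0.0242 with the replicate number as a block and 0.0385 without WT replicate 1 (log2 fold change -0.77), within a range of 4.15e-16 to 0.397. Next came Adpgk, the ADP-dependent glucokinase (-0.40, adjusted p = 0.266), and Emb, a partner of the lactate carriers (0.29, adjusted p = 0.275).

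None of the 11 other pentose phosphate genes tested had an unadjusted p under 0.05. The smallest belonged to H6pd (-0.26, adjusted p = 0.430), Prps2 (0.18, adjusted p = 0.460) and Rbks (-0.21, adjusted p = 0.857). G6pdx, the entry step of the pathway, was at 47.3 and 50.4 RPKM in WT against 49.5 and 48.5 RPKM in Nfat5-/- KCs. In the pyruvate dehydrogenase complex and import, 1 of 10 genes tested, Dld, the E3 subunit, had an unadjusted p under 0.05, with 35.3 and 33.4 RPKM in WT against 28.4 and 27.1 RPKM in Nfat5-/- KCs (-0.29, adjusted p = 0.247). It was followed by Pdp1, a phosphatase that activates the complex (-0.30, adjusted p = 0.456), and Dlat, its E2 subunit (0.10, adjusted p = 0.709).

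Among 12 other oxygen-sensing genes tested, 2 (16.7%) had an unadjusted p under 0.05. Epas1, which encodes HIF2α, had 0.431 and 0.383 RPKM in WT against 0.719 and 0.996 RPKM in Nfat5-/- KCs (log2 fold change 1.11, adjusted p = 0.116), and Siah2, a ubiquitin ligase that acts on the prolyl hydroxylases, had 12.9 and 11.9 against 10.7 and 9.16 RPKM (-0.29, adjusted p = 0.338). They were followed by Siah1a (-0.23, adjusted p = 0.478). Arnt, the constitutive partner of HIF1α, was at 9.77 to 10.9 RPKM in all libraries.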

How the data were processed

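Poly(A)+ RNA of in vitro cultivated KCs was sequenced (WT and Nfat5-/-, 2 libraries each). The authors aligned the reads to GRCm38 with CLC Genomics Workbench and deposited, for each gene and library, whole-number counts of reads (total gene reads, exon reads, unique exon reads and intron reads) and RPKM values, which carry decimal commas. Strand-specific counting is not stated in the sources used here, so that overlapping genes cannot be told apart. From the deposited counts, gene reads of all genes were fitted with edgeR 4.0.16 (filterByExpr, TMM factors, quasi-likelihood test, R 4.3.3), adjusted by Benjamini-Hochberg over all genes tested at a threshold of 0.05, and rows of the members were read from that fit. The same fit was made on unique exon reads, given for members with under 60% of exon reads unique. Standard errors were taken from the quasi-likelihood F and intervals are 95% intervals. DESeq2 1.42.0 and limma 3.58.1 served as alternatives, on log2(RPKM + 1) and log2(RPKM + 0.1) for limma. The fits were tested on simulated data. Total gene and exon reads include reads that map to more than 1 site, which weighs on genes with pseudogenes such as Gapdh. Levels between genes were compared in deposited RPKM only, and the values are given as mean ± SD.

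The libraries held 16219445 to 23494436 gene reads, and 15825 to 16330 genes had a read. All 40 members were found, Aldoa by its gene identifier. The genes of each list were fixed by role, all members are named, and of the other lists those called and otherwise the 3 with the smallest unadjusted p. Arnt, G6pdx, Stc2, Bhlhe40 and Plod2 were added to these after their values were seen. Members and lists were chosen with earlier results of these data known. Elob and Eloc were also listed under their former symbols Tceb2 and Tceb1 and were counted once. The markers Itgam and Xist were not analysed here. Core motifs were searched on both strands in RefSeq promoter windows of 300 bases, using for each gene the window nearest to its annotated start. The alternatives were other scaling factors, filters, tests, read classes, pseudocounts, a replicate block and leaving out each library.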

Additional observations from a re-analysis of the deposited data

How the results depend on the processing

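Beside 160 genes and 0 members called in total gene reads, DESeq2 called 426 genes and 2 members (Pfkfb3, Slc16a3), the fit without a filter on low counts 1137 genes and 4 members (also Adm and Vegfa), and an adjusted p under 0.1 gave 364 genes and 0 members. Leaving out each library gave 16 to 478 genes and 0 to 2 members, where the lone library of a genotype was assumed to vary like the others. By library, this was 268 without WT replicate 1, 478 without WT replicate 2, 31 without Nfat5-/- replicate 1 and 16 without Nfat5-/- replicate 2. In unique exon reads, beside 218 genes and 0 members, DESeq2 called 407 genes and 2 members, no filter 1076 genes and 4 members, and leaving out each library 48 to 348 genes and 0 to 2 members. The cause was not tested. The replicate block gave 132 genes and 0 members (246 genes in unique exon reads). Over 12614 genes the deviations of libraries with the same number had a correlation of -0.07. With 2 libraries per genotype this value cannot decide whether the numbers mark pairs, which the labels do not state. The block changed no call among the genes named other than those of Fos, Pck2 and Stc2. Of the shares within families, those computed from unique exon reads moved by more than the spread of the WT libraries for Aldoa (98.7% for 98.8%), Aldoc (1.32% for 1.16%), Ldha (96.9% for 97.3%) and Ldhb (3.11% for 2.73%).

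The fit on intron reads turned the sign of Slc2a1, Gpi1, Aldoa, Gapdh, Ldha, Tkt, Kdm3a and P4ha2. Among the other settings that kept all libraries, signs turned for Gpi1, Tpi1, Eno1 and Taldo1. Gpi1 became -0.01 with library totals and with both limma fits, Tpi1 -0.02 with library totals, -0.01 with both limma fits, -0.003 in exon reads and -0.005 in unique exon reads, Eno1 -0.02 in unique exon reads, and Taldo1 0.0005 by DESeq2 and 0.0004 with RLE factors. With single libraries left out, the log2 fold change ranged for Hk2 from -0.12 to 0.20, Gpi1 from -0.03 to 0.05, Pfkl from -0.03 to 0.32, Pfkm from -0.29 to 0.13, Pfkp from -0.34 to 0.03, Aldoa from -0.14 to 0.10, Aldoc from -0.12 to 0.22, Tpi1 from -0.15 to 0.19, Gapdh from -0.05 to 0.11, Pgk1 from -0.02 to 0.37, Eno1 from -0.07 to 0.14, Pkm from -0.21 to 0.07, Ldha from -0.11 to 0.05, Ldhb from -0.01 to 0.22, Pdk1 from -0.43 to 0.30, Pfkfb4 from -0.27 to 0.15, Taldo1 from -0.05 to 0.05, Egln1 from -0.16 to 0.05, Bnip3 from -0.16 to 0.60, Car9 from -0.15 to 0.97, Ndrg1 from -0.35 to 0.18 and Higd1a from -0.12 to 0.03. In unique exon reads it ranged for Gapdh from -0.06 to 0.17, Eno1 from -0.11 to 0.09, Hif1a from -0.16 to 0.06 and Bnip3 from -0.29 to 0.63. The remaining 16 of the 38 members kept their sign when any 1 library was left out. Intervals and limits cover counting error and the spread of these 4 cultures only, and Eno2 and Ankrd37 were too shallow to test.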
